A study of Mus musculus with 8 samples.

Results

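Hoxa5, Hoxa7, Hoxa9, Hoxa10, Hoxb4, Meis1 and Pbx3 are homeobox genes tied to self-renewal of blood stem cells and to leukaemia. They were taken by symbol from a table of 23293 mouse genes, which holds a row for each of the 7. Of these genes, 4 belong to the Hoxa cluster and 1 to the Hoxb cluster, and the other two, Meis1 and Pbx3, encode partners of Hox proteins. A mean of at least 1 FPKM (fragment numbers relative to transcript length and library size) over the libraries was required for a test, and 6 of the 7 reached it; Hoxa10 did not.

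RNA was sequenced from c-Kit-positive cells of individual mice, enriched from whole bone marrow on magnetic beads 4 weeks after injection of PIpC, which switches on the Mx1-cre recombinase. The control group carried 1 floxed Smc3 allele (Smc3 fl/+) and no Mx1-cre. The other groups all carried Mx1-cre and were labelled Smc3 del/+, Flt3-ITD, and both alterations together (the combined group). There were 8 libraries, 2 in each of the 4 groups. Smc3 encodes a core subunit of cohesin, and the internal tandem duplication of Flt3-ITD keeps the Flt3 receptor kinase active. In the combined group the labels give Smc3 as fl/del in the genotype and as het in the title. Because Mx1-cre is absent from the controls alone, any effect of the recombinase cannot be told apart from that of the genotype in comparisons with them. The Mx1 promoter responds to interferon and is active in more than blood cells.

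Hox genes lie in clusters and encode transcription factors whose DNA binding is sharpened by partners of the TALE class, namely the Meis and Pbx proteins. In blood formation, several genes of the Hoxa and Hoxb clusters are most active in stem and early progenitor cells and are shut down as cells mature. Hoxa9 with Meis1 and Pbx3 forms a complex that drives many acute myeloid leukaemias, and Hoxb4 is best known for expanding stem cells when it is supplied from outside.

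All the genes but Pbx3 have an entry in the RefSeq promoter table (GRCm38.p6, a later build than that of the expression values). The 250 bases before the start are printed for Hoxb4, which was higher with Flt3-ITD, and for Hoxa9 and Meis1, the classical pair, which did not pass the test. Capitals mark the homeodomain core TAAT and the CCAAT box, read on both strands, so that they also appear as ATTA and ATTGG. The sequences are from chr11:96318017-96318266 on the plus strand for Hoxb4, chr6:52227371-52227620 on the minus strand for Hoxa9 and chr11:19018970-19019219 on the minus strand for Meis1.
Hoxb4: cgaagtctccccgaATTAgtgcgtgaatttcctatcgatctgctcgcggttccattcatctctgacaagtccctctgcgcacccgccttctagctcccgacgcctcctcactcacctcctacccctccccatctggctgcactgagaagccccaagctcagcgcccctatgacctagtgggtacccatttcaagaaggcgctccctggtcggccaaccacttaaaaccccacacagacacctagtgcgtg
Hoxa9: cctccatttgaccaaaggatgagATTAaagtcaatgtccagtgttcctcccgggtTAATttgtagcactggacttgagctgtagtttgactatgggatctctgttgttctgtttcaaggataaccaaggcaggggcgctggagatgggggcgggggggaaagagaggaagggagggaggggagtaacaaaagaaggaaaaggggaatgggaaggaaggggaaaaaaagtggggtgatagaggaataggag
Meis1: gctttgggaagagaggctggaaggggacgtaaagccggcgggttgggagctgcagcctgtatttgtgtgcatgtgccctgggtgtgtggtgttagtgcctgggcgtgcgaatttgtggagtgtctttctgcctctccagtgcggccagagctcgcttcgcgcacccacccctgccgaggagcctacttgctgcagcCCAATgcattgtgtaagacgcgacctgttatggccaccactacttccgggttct

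The Hoxb4 window holds TAAT at 1 place and no CCAAT, the Hoxa9 window holds TAAT at 2 places, and the Meis1 window holds CCAAT at 1 place and no TAAT. These letters are common: of 32851 promoter windows of this length, 54.9% hold TAAT and 33.8% hold CCAAT. Also searched on both strands were TTCNNNGAA, the site of STAT5, a factor downstream of Flt3-ITD (7.02% of windows), TGACAG for Meis (15.9%), TGATTTAT for Pbx with Hox (0.837%) and CACGTG, the E-box (6.02%). None of these 4 was found in any of the 7 windows of the 6 genes, which include 2 for Hoxa10. The searched motifs do not overlap each other in the 3 printed windows. A match or its absence describes these windows alone.

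The libraries held 10490 to 10843 genes at 1 FPKM or more, and read depth is unknown because the values are not counts. Combined replicate 2 stood apart, with 11076 genes listed at 0 against 8878 to 9907 in the other libraries. Kit, which encodes the antigen used for selection, was at 37.4 to 60.1 FPKM, so its RNA was present throughout. It was lowest in the combined libraries, at 40.1 and 37.4 FPKM against 60.1 and 54.9 in controls. Combined against control called it lower (-0.56 ± 0.136 SE on the log2(FPKM + 1) scale, limma, adjusted p = 0.0391). Smc3 gave 119 and 112 FPKM in the control libraries and 135 and 133 in those labelled Smc3 del/+, so its gene-level value does not show the labelled deletion. In the combined group it was at 103 and 136, against 94.7 and 89.9 in Flt3-ITD. Xist, which marks female cells, was at 499.8 to 657 FPKM in the control and combined libraries and at most 0.936 in the other 4. Sex therefore cannot be told apart from genotype in Smc3 del/+ or Flt3-ITD against control, in combined against Flt3-ITD, or in the interaction, whereas combined against control is matched and the averaged effects are balanced for it. RNA of cell type markers differed with Flt3-ITD. Summed over 7 mature neutrophil markers, the range was 141569 to 228610 FPKM in the 4 carriers against 79296 to 108568 in the others. Over 10 erythroid markers it was 39.8 to 525 against 1467 to 1689. None of the markers on these lists was listed at 0 in all libraries, but 2 erythroid ones were near 0 in most. Hba-a1 was at 0.01 to 0.0123 FPKM except 6.75 in combined replicate 1. Hbb-b1 was at 0.01 except 25.1 in Smc3 del/+ replicate 2. Car1 made up most of the erythroid sum, with 1216 of 1689 FPKM in control replicate 1. In such bulk samples, fewer cells of a type and less RNA per cell cannot be told apart.

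FPKM is scaled by length, so levels can be set beside each other across genes. In controls, Meis1 was at 6.41 ± 0.393 FPKM (SD, n = 2), Pbx3 at 6.07 ± 0.0593, Hoxb4 at 4.59 ± 1.57, Hoxa9 at 2.73 ± 0.245, Hoxa5 at 2.48 ± 0.864, Hoxa7 at 0.918 ± 0.760 and Hoxa10 at 0.380 ± 0.112. Of neighbours in this order, the control ranges of Hoxa9 and Hoxa5 overlapped, as did those of Hoxa7 and Hoxa10, and the ranges of the others did not.

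Of 39 Hox genes in the table, 11 Hoxa, 10 Hoxb, 9 Hoxc and 9 Hoxd, 18 were listed at 0 in all 8 libraries and 6 were above 0 in all. Signal was held by the Hoxa and Hoxb clusters. No Hoxc gene exceeded 0.124 FPKM in any library, and the Hoxd genes were all listed at 0 but Hoxd8, at 0.9995 FPKM in combined replicate 2 alone. Only 5 Hox genes reached a mean of 1 FPKM: Hoxa5, Hoxa7, Hoxa9 and Hoxb4, with Hoxb3 as the sole one outside the 7 genes.

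**Figure D1:**
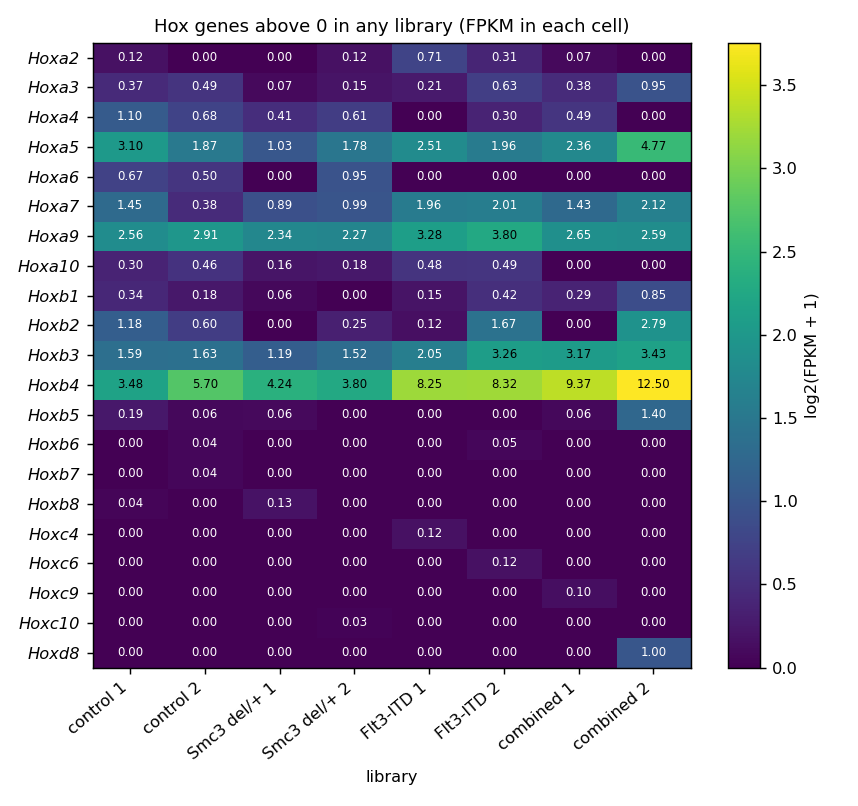
FPKM of each Hox gene above 0 in any library (rows) in the 8 libraries (columns), coloured by log2(FPKM + 1). Hoxb4 is the brightest row in all libraries, and the 4 libraries on the right, from mice with Flt3-ITD, reach 8.25 to 12.5 FPKM.

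Hoxb4, the Hox gene with the highest level in every library, was higher in mice with Flt3-ITD. It was at 3.48 and 5.70 FPKM in controls, at 4.24 and 3.801 with Smc3 del/+, at 8.25 and 8.32 with Flt3-ITD, and at 9.37 and 12.5 in combined mice. The 4 carriers of Flt3-ITD (9.61 ± 1.996 FPKM, SD, n = 4) all lay above the 4 other libraries (4.31 ± 0.982). Groups so separated, in either direction, were found for 27.2% of all 10854 genes tested. Averaged over both Smc3 backgrounds, Hoxb4 rose by 0.999 ± 0.182 (SE) on the log2(FPKM + 1) scale (limma, adjusted p = 0.00724). It also rose in the combined group against control, by 1.11 ± 0.241 (limma, adjusted p = 0.0278). Flt3-ITD against control gave 0.76 ± 0.241 (limma, adjusted p = 0.0668), which did not pass. The averaged call held without any 1 library (adjusted p from 0.0038 to 0.0304), but the combined call was lost whenever a control, Smc3 del/+ or Flt3-ITD library was left out (limma, adjusted p from 0.0562 to 0.188, with fold changes of 0.82 without control replicate 1 and 1.40 without control replicate 2). The combined call was also lost without the filter on low values (limma, adjusted p = 0.0548) and with only the 2 groups in the fit (0.159). Flt3-ITD against control passed with only the 2 groups in the fit (limma, adjusted p = 0.0479), where 3603 of all 10854 genes were called against 1955 in the main fit. It also crossed the threshold without combined replicate 1 or 2, in fits that hold 1 combined library and call more of all genes.

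Hoxb4 overlaps Hoxb3 in the RefSeq annotation, and no source used here says how reads of shared sequence were assigned, so the values of both are uncertain. Hoxb3, whose product is another homeobox factor of early progenitors, was at 1.59 and 1.63 FPKM in controls, at 1.19 and 1.52 with Smc3 del/+, at 2.05 and 3.26 with Flt3-ITD, and at 3.17 and 3.43 in combined mice. The carriers lay above all other libraries, a separation found in either direction for 27.2% of all 10854 genes tested. The averaged difference was 0.67 ± 0.186 (limma, adjusted p = 0.0326), and it passed without Flt3-ITD replicate 1 or combined replicate 2 (adjusted p = 0.0256 and 0.0329) but failed when any other library was left out (0.0625 to 0.0989). With the authors' normalized table the sign of Hoxb3 in Flt3-ITD against control turned, from 0.46 to -0.16, and neither value passed. Of the 34 Hox genes outside the 7, Hoxb3 was the 1 tested, so that the list gives 1 higher and 0 lower for the averaged effect and 0 in every other comparison.

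Among the 6 genes tested, Flt3-ITD averaged over both Smc3 backgrounds gave 1 higher (Hoxb4) and 1 lower (Pbx3), beside 23.8% of all genes tested that were called in either direction. Combined against control gave the same split of 1 and 1, with 11.8% of all genes called, and Flt3-ITD against control gave 0 higher and 1 lower (Pbx3), with 18% called. Median differences of the 6 were 0.30, 0.16 and 0.10, against -0.01 for all genes in each of the 3 comparisons. The share of members called, 2 of 6 or 1 of 6, is near these backgrounds and is not a result about the list as a whole.

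**Figure D2:**
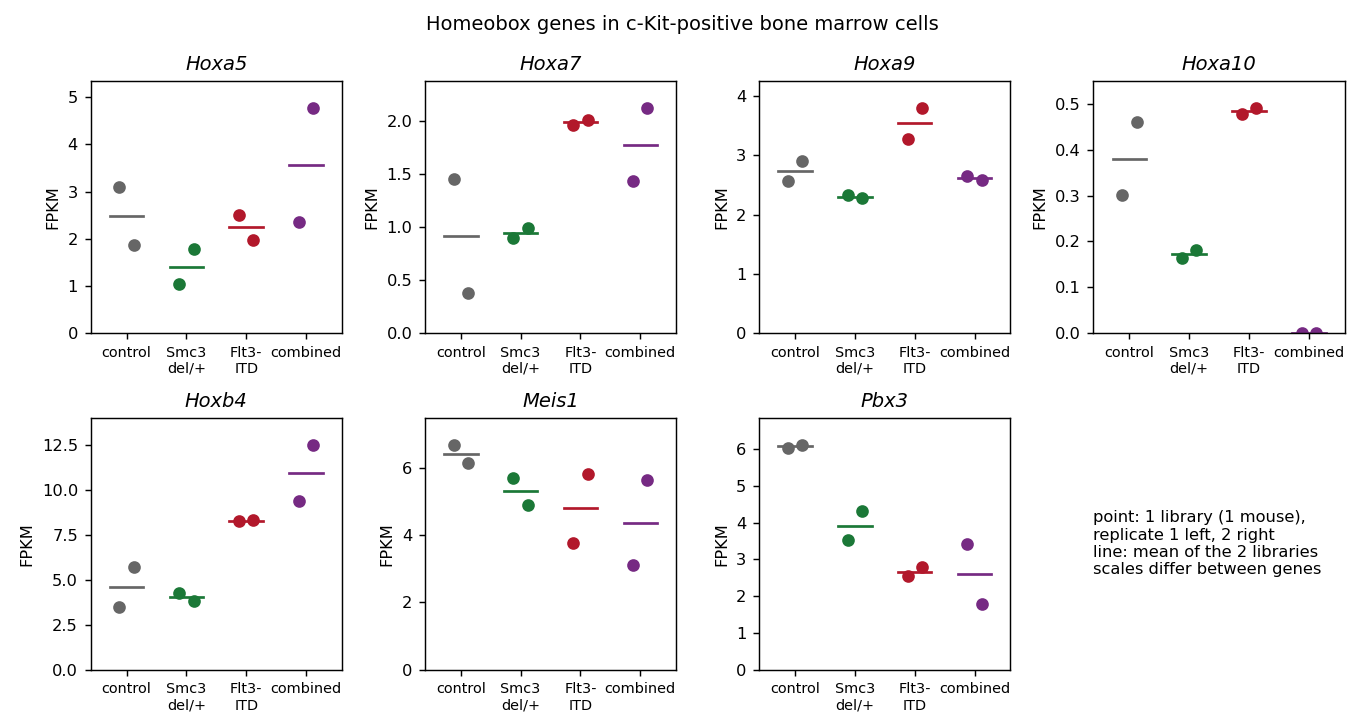
FPKM of each of the 7 genes (vertical axes, each with its own scale from 0) in the 4 groups; points are libraries and lines are means of 2. Hoxb4 is at 8.25 to 12.5 in the Flt3-ITD and combined libraries and at 3.48 to 5.70 in the rest, and Pbx3 falls from 6.03 and 6.12 in controls to 1.78 to 3.41 in carriers of Flt3-ITD.

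None of the 3 Hoxa genes tested passed in any comparison of FPKM as deposited. Hoxa9, whose protein binds with Meis1 and Pbx3, was at 2.56 and 2.91 FPKM in controls, at 2.34 and 2.27 with Smc3 del/+, at 3.28 and 3.798 with Flt3-ITD, and at 2.65 and 2.59 in combined mice. Flt3-ITD libraries were the highest, and the combined libraries lay within the range of the controls. None of the comparisons passed: Flt3-ITD against control gave 0.28 ± 0.202 (limma, adjusted p = 0.376), combined against Flt3-ITD -0.32 ± 0.202 (0.546), and combined against control -0.04 ± 0.202 (0.917). Within each library, Hoxb4 stood at 1.36 and 1.96 times Hoxa9 in controls, at 1.82 and 1.67 times with Smc3 del/+, at 2.52 and 2.19 times with Flt3-ITD, and at 3.53 and 4.83 times in combined mice. A single scaling factor per library leaves this ratio unchanged, whereas values in the authors' normalized table give other ratios. It was higher in all 4 carriers than in the other 4 libraries, as Hoxb4 alone was. How often other pairs of genes separate in this way was not computed.

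Hoxa7 was at 1.45 and 0.380 FPKM in controls, at 0.893 and 0.993 with Smc3 del/+, at 1.96 and 2.01 with Flt3-ITD, and at 1.43 and 2.12 in combined mice. Carriers (1.43 to 2.12) overlapped the others through control replicate 1. The averaged effect of Flt3-ITD was 0.60 ± 0.228 (limma, adjusted p = 0.0884) and that of Flt3-ITD against control 0.70 ± 0.325 (0.177); neither passed. Hoxa5, a neighbour in the cluster that restrains erythroid and favours myeloid development in human progenitors, was at 3.10 and 1.87 FPKM in controls, at 1.03 and 1.78 with Smc3 del/+, at 2.51 and 1.96 with Flt3-ITD, and at 2.36 and 4.77 in combined mice. Its highest value came from combined replicate 2, and the groups overlapped except that both Smc3 del/+ libraries lay under all others. The margin was small (1.78 against 1.87 FPKM in control replicate 2). This pattern was singled out after the values were seen, and its share over all genes was not computed. The interaction of Smc3 deletion and Flt3-ITD gave 0.98 ± 0.482 for Hoxa5 (limma, adjusted p = 0.589), which did not pass. Hoxa5 overlaps Hoxa3 and Hoxaas3 in RefSeq, which leaves its values uncertain in the same way.

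Hoxa10, a myeloid regulator often high in acute leukaemia, was at 0.301 and 0.460 FPKM in controls, at 0.165 and 0.181 with Smc3 del/+ and at 0.479 and 0.491 with Flt3-ITD, and was listed at 0 in both combined libraries. The 4 libraries labelled with the Smc3 deletion (0 to 0.181) were all under the 4 others (0.301 to 0.491), a pattern singled out after the values were seen. Separation of this kind, in either direction, was found for 2.61% of 2525 genes with a mean of 0.1 to 1 FPKM, and for 1.7% of the 10854 genes tested. Without the filter on low values, Smc3 del/+ against control gave -0.23 ± 0.0737 (limma, adjusted p = 0.677), which did not pass. The Smc3 effect averaged over both Flt3 backgrounds gave -0.40 ± 0.0805 (limma, adjusted p = 0.735) and did not pass either. In that fit combined against control passed as lower (limma, adjusted p = 0.0241) and combined against Flt3-ITD did not (0.0796), and no fold is given against a group listed at 0. In the authors' normalized table Hoxa10 was at 0.0989 and 0.121 in the combined group, at 0.278 and 0.264 with Smc3 del/+, at 0.471 and 0.373 with Flt3-ITD and at 0.556 and 0.665 in controls, with the same separation. The share of all genes so separated in that table was not computed. Most of its genes were lower with the deletion (median -0.24 for the averaged Smc3 effect, 11.3% of genes higher). Hoxa10 overlaps Gm52902 in RefSeq, and its low level limits what can be read from it at an unknown depth.

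Pbx3, which encodes a cofactor that stabilises the Hoxa9 and Meis1 complex, fell with Flt3-ITD. It was at 6.03 and 6.12 FPKM in controls, at 3.53 and 4.31 with Smc3 del/+, at 2.54 and 2.79 with Flt3-ITD, and at 3.41 and 1.78 in combined mice. All 4 carriers (2.63 ± 0.677 FPKM, SD, n = 4) were under the 4 other libraries (4.996 ± 1.29), with Smc3 del/+ between the controls and Flt3-ITD. Such a separation, in either direction, was found for 27.2% of all 10854 genes tested. The margin was small for Pbx3, 3.41 FPKM in combined replicate 1 against 3.53 in Smc3 del/+ replicate 1. Averaged over both Smc3 backgrounds, Pbx3 fell by 0.72 ± 0.194 on the log2(FPKM + 1) scale (limma, adjusted p = 0.0291). Flt3-ITD against control gave -0.95 ± 0.259 (limma, adjusted p = 0.0423) and combined against control -1.02 ± 0.259 (0.0447). Smc3 del/+ against control gave -0.53 ± 0.259 (limma, adjusted p = 1), which did not pass. These libraries did not overlap, but an exact permutation test of 2 against 2 cannot go below p = 0.333. The share of all genes that separate Smc3 del/+ from control was not computed.

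The Pbx3 calls lie close to the threshold. The averaged call was lost without control replicate 1 or 2, Smc3 del/+ replicate 2, or Flt3-ITD replicate 1 or 2 (limma, adjusted p from 0.0796 to 0.0966). Both calls against control were lost whenever a control, Smc3 del/+ or Flt3-ITD library was left out (adjusted p from 0.0781 to 0.221). They held without combined replicate 1 or 2, where the fold change of combined against control was -1.35 without replicate 1 and -0.68 without replicate 2. Those fits hold 1 combined library and call more of all genes than the main fit in both comparisons. Pseudocounts of 0.25 and 0.1 in place of 1 also ended both calls against control (adjusted p from 0.0513 to 0.0560), and without the filter on low values all 3 calls were lost (0.0577 to 0.0807). With only the 2 groups in the fit, combined against control did not pass (0.190). Pbx3 stayed lower under each of these settings.

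Pbx2, a broadly active family member, rose in Flt3-ITD against control, from 25.2 and 28.5 FPKM to 42.8 and 37.5 (0.56 ± 0.158, limma, adjusted p = 0.0459). That call was lost whenever a control, Smc3 del/+ or Flt3-ITD library was left out (0.0968 to 0.267), and in combined against control Pbx2 gave 0.02, or -0.69 in the normalized table. Pbx4 gave an averaged difference of -0.49 that did not pass (limma, adjusted p = 0.145).

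Meis1, the Hoxa9 partner needed for stem cell maintenance, was at 6.69 and 6.13 FPKM in controls, at 5.69 and 4.91 with Smc3 del/+, at 3.77 and 5.81 with Flt3-ITD, and at 3.11 and 5.64 in combined mice. Controls were the highest, and carriers overlapped the Smc3 del/+ libraries. Flt3-ITD against control gave -0.38 ± 0.283 (limma, adjusted p = 0.397), combined against control -0.50 ± 0.283 (0.289) and the averaged effect -0.32 ± 0.192 (0.256), none of which passed. Without combined replicate 2, combined against control was -0.85 and the averaged effect -0.47. Both crossed the threshold there, but that fit holds 1 combined library and calls more of all genes than the main fit. Meis1 overlaps Gm16141 in RefSeq, so its values carry the same uncertainty.

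Within each library, Meis1 stood at 1.11 and 1.002 times Pbx3 in controls, at 1.61 and 1.14 times with Smc3 del/+, at 1.48 and 2.09 times with Flt3-ITD, and at 0.911 and 3.18 times in combined mice. Like that of Hoxb4 to Hoxa9, this ratio is unchanged by a single scaling factor per library. Both Flt3-ITD libraries lay above both controls, and the combined libraries were the lowest and the highest of all, so carriers and other libraries overlapped.

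**Figure D3:**
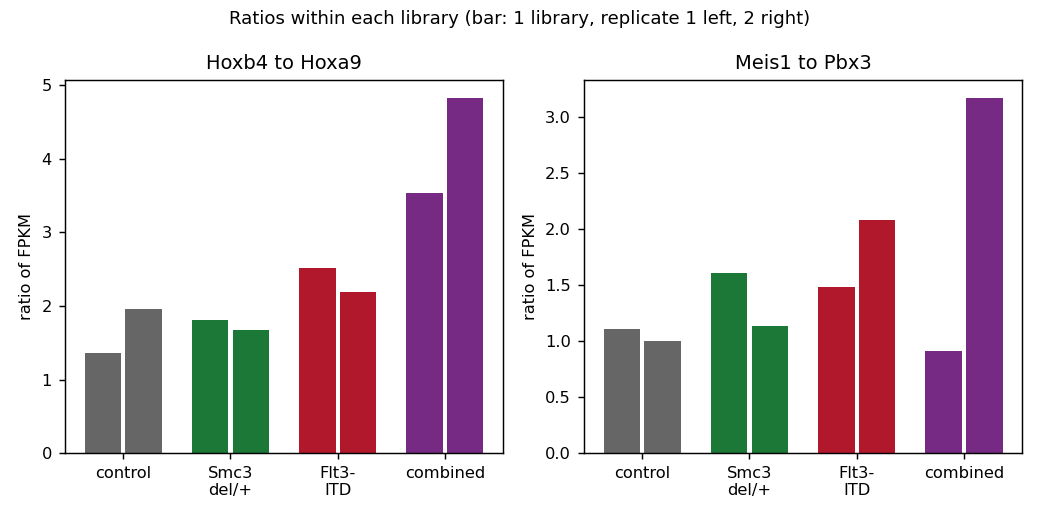
Ratio of Hoxb4 to Hoxa9 (left) and of Meis1 to Pbx3 (right) in FPKM, with a bar for each library from 0. The first ratio is at most 1.96 without Flt3-ITD and reaches 3.53 and 4.83 in the combined group, and the second differs most between the combined libraries, at 0.911 and 3.18.

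How the libraries are scaled bears on these calls. In FPKM as deposited, the median log2 difference of all genes was near 0, but in the authors' normalized table it was -0.58 for Flt3-ITD against control, -0.67 for combined against control and -0.44 for the averaged effect of Flt3-ITD, and after scaling to the ERCC spike-ins it was -0.50, -0.64 and -0.41. Calls shifted with it: for Flt3-ITD against control, 924 genes were higher and 1031 lower in FPKM as deposited, against 106 and 4768 in the normalized table and 103 and 3404 with spike-ins. Hoxb4 kept its sign and lost its calls, with an averaged effect of 0.54 (limma, adjusted p = 0.0712) in the normalized table and 0.62 (0.0546) with spike-ins. Pbx3 kept its direction and passed, at -1.11 (0.00471) and -1.06 (0.00521). Meis1 passed as lower, with an averaged effect of -0.75 (limma, adjusted p = 0.0135) and -0.69 (0.0238). For that effect, 4831 of 11027 genes were called lower in the normalized table and 4168 of 10908 with spike-ins.

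In the normalized table Meis1 was at 8.98 and 9.30 in controls, at 6.05 and 4.95 with Smc3 del/+, at 3.42 and 4.92 with Flt3-ITD, and at 2.74 and 4.48 in combined mice, so that carriers and other libraries no longer overlapped, although Flt3-ITD replicate 2 and Smc3 del/+ replicate 2 were nearly equal. The share of all genes so separated in that table was not computed, and most of its genes were lower in carriers (median -0.44). Hoxa9 turned sign in Flt3-ITD against control, from 0.28 to -0.35 in that table and -0.14 with spike-ins, and was called lower in combined against control in the table alone (-0.62, limma, adjusted p = 0.0390). That comparison called 5857 of 11027 genes lower there. Relative to the median of all genes in each scaling, Hoxb4 lay above and Pbx3 below it in each of the 3 comparisons, and Meis1 stayed below it. Summed spike-in FPKM ranged from 9509 to 18628 across libraries before any scaling.

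**Figure D4:**
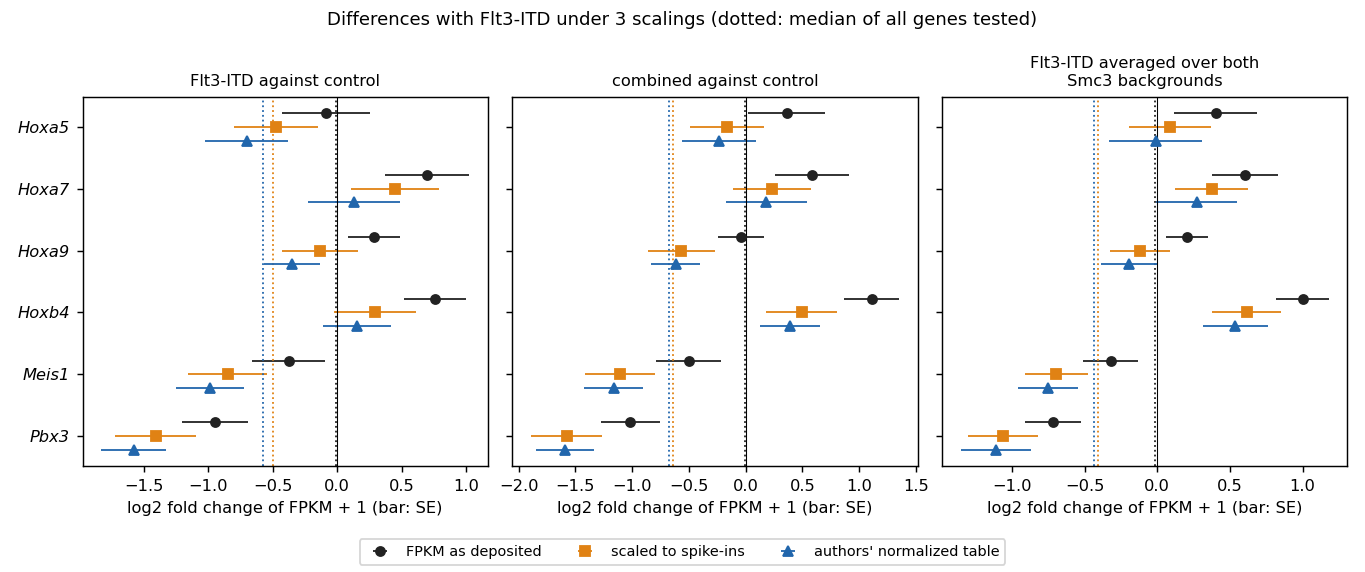
Log2 fold change of FPKM + 1 with its SE for the 6 genes tested in 3 comparisons, from FPKM as deposited (circles), after spike-in scaling (squares) and in the authors' normalized table (triangles); dotted lines mark the median of all genes in the same colour. In the averaged effect, Hoxb4 is at 0.999, 0.62 and 0.54, Meis1 at -0.32, -0.69 and -0.75, and Pbx3 at -0.72, -1.06 and -1.11, in that order of scalings.

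None of the 6 genes passed the test in the 4 comparisons of libraries with and without the labelled Smc3 deletion. Sex differs along with it in all of these but the averaged effect, and Mx1-cre in all but combined against Flt3-ITD. In Smc3 del/+ against control their median difference was -0.21, with 0.00921% of all genes called (1 of 10854). Averaged over both Flt3 backgrounds the median was -0.11, with 0% of all genes called by limma and 525 at an unadjusted p under 0.05. In combined against Flt3-ITD the median was -0.09 with 0.286% called, and for the interaction 0.29 with 0.0369% called. With 2 libraries a group and so few calls among all genes, these comparisons do not show that the genes were unaffected. The largest interaction was that of Hoxa5, given above, and Hoxb4 gave 0.48 ± 0.341 (limma, adjusted p = 0.696).

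Regulators of the Hox clusters were examined next, 31 genes that include members of the MLL and Dot1l complexes, which keep the clusters active, and of Polycomb, which silences them. The 3 Cdx genes were listed at 0 throughout, and the other 28 were tested. For Flt3-ITD against control 1 rose and 2 fell, and for the averaged effect 1 rose and 4 fell, beside 18% and 23.8% of all genes called in either direction. These 3 and 5 of 28 are not above that background. The medians were -0.10 and -0.06 against -0.01 for all genes in each. In the other 5 comparisons none passed. Mllt3, a subunit of the elongation complex that Dot1l joins, was at 15.3 and 12.7 FPKM in controls, at 12.7 and 11.7 with Smc3 del/+, at 2.03 and 1.86 with Flt3-ITD, and at 2.99 and 10.2 in combined mice. Its difference in Flt3-ITD against control was -2.34 ± 0.421 (limma, adjusted p = 0.0115), lost without either control or either Flt3-ITD library (0.0648 to 0.0972). Combined replicate 2 lay between the other carriers and the controls, and its summed erythroid markers did so too (525 FPKM against 154 in replicate 1); their part in the Mllt3 values was not tested.

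Npm1, a nucleolar chaperone whose mutation in leukaemia comes with high HOX genes, was at 1239 and 1089 FPKM in controls, at 1106 and 1129 with Smc3 del/+, at 536 and 585 with Flt3-ITD, and at 678 and 1093 in combined mice. In Flt3-ITD against control it gave -1.05 ± 0.233 (limma, adjusted p = 0.0226), lost whenever a control, Smc3 del/+ or Flt3-ITD library was left out (0.0564 to 0.163). Psip1, which tethers the MLL complex to chromatin, fell in the averaged effect by 0.54 ± 0.138 (limma, adjusted p = 0.0235), a call that held only without combined replicate 1 or 2 (0.0470 and 0.000306) and failed when any other library was left out (0.0537 to 0.0806). Kdm6b, a demethylase that removes the Polycomb mark, was the 1 that rose, by 1.06 ± 0.297 in Flt3-ITD against control (limma, adjusted p = 0.0466; 0.0810 to 0.266 when a control, Smc3 del/+ or Flt3-ITD library was left out). In the normalized table and with spike-ins Kdm6b did not pass, and its sign turned in combined against control (0.57 as deposited, -0.14 in the table), while Mllt3, Npm1 and Psip1 stayed lower in carriers.

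Of 18 genes reported elsewhere as targets of Hoxa9 or Meis1, 17 were tested. In Flt3-ITD against control 2 rose and 1 fell, in combined against control also 2 and 1, and in the averaged effect 6 and 1, beside 18%, 11.8% and 23.8% of all genes called in either direction. The 3 of 17 in each of the first 2 comparisons are near that background. The 6 and 1 of 17 in the averaged effect lie above it, but the list was chosen with earlier results known. It was not tested as a whole, and among those calls Cd34, Bcl2, Erg and Pim1 did not pass in the normalized table. The medians were -0.03, 0.09 and 0.20 against -0.01 for all genes, and in the other 4 comparisons none passed. Trib2, a pseudokinase gene that Meis1 activates in leukaemia, was at 4.13 and 3.54 FPKM in controls, at 4.07 and 3.90 with Smc3 del/+, at 0.329 and 0.211 with Flt3-ITD, and at 0.755 and 1.06 in combined mice. Carriers lay far under the other libraries, and the averaged difference was -1.66 ± 0.187 (limma, adjusted p = 0.00148), called without any 1 library (0.000293 to 0.00936). Id2, an inhibitor of helix-loop-helix factors, was at 64.3 and 72.5 FPKM in controls, at 65.4 and 60.4 with Smc3 del/+, at 164 and 129 with Flt3-ITD, and at 113 and 191 in combined mice (averaged 1.15 ± 0.166, limma, adjusted p = 0.00301). Trib2 and Id2 kept these directions in the normalized table (-1.92 and 0.72) and with spike-ins (-1.93 and 0.71), and passed there.

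Cd34, a surface marker of progenitors, was at 49.5 and 53.4 FPKM in controls, at 48.9 and 44.5 with Smc3 del/+, at 61.7 and 85.6 with Flt3-ITD, and at 84.8 and 86.8 in combined mice. The averaged difference was 0.68 ± 0.131 (limma, adjusted p = 0.00884), called without any 1 library, but 0.25 and not past the threshold in the normalized table (adjusted p = 0.260). Hif1a, which encodes the oxygen-sensing factor that Meis1 controls in stem cells, rose in Flt3-ITD against control by 0.58 ± 0.144 (limma, adjusted p = 0.0319; 0.0731 to 0.187 when a control, Smc3 del/+ or Flt3-ITD library was left out), and in the normalized table gave 0.05. The remaining calls of the averaged effect, Bcl2, Erg and Pim1, did not pass in the normalized table either. Flt3, itself a reported target, was at 5.81 and 5.21 FPKM in controls, at 4.95 and 4.74 with Smc3 del/+, at 3.64 and 5.36 with Flt3-ITD, and at 14.3 and 7.92 in combined mice, highest in the combined libraries but not called (combined against control 0.85 ± 0.285, limma, adjusted p = 0.0984). No table used here tells the mutant Flt3 allele from the normal one.

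Other TALE homeobox genes in the list were 12, of which 7 were tested. Flt3-ITD against control gave 1 higher (Pbx2) and 0 lower, beside 18% of all genes called, and the other 6 comparisons gave 0. A count of 1 of 7 is not above that background. Their median was 0.35 in Flt3-ITD against control and 0.23 in the averaged effect, against -0.01 for all genes in both. Pbxip1, which encodes a protein that binds Pbx factors and blocks them from DNA, was at 12.1 and 12.8 FPKM in controls, at 13.3 and 12.3 with Smc3 del/+, at 25.6 and 23.3 with Flt3-ITD, and at 28.4 and 11.5 in combined mice. It was high in 3 of 4 carriers, with combined replicate 2 at the level of the controls, and the averaged difference of 0.70 ± 0.243 did not pass (limma, adjusted p = 0.0689); it is named here after its values were seen.

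Markers of other cell types moved with Flt3-ITD beside the differences in Hoxb4 and Pbx3. Summed over 10 stem cell markers, the 4 carriers ranged from 13.2 to 18.5 FPKM and the other libraries from 20.3 to 27.9, with 3 of the 10 higher on average in carriers. Megakaryocyte markers, 6 genes, summed to 188 and 194 FPKM in controls, to 65.4 and 73.3 with Smc3 del/+, and to 15.3 to 57.8 in carriers, and all 6 were lower on average in carriers. B cell markers, 7 genes, summed to 73.1 and 193 FPKM in controls, to 31.1 and 43.3 with Smc3 del/+ and to 5.06 to 10.3 in carriers. Monocyte markers, 5 genes, summed to 178 to 355 FPKM in carriers and 78.1 to 108 in the others, and all 5 were higher on average in carriers. The 5 primary granule genes of early granulocyte cells ranged from 4844 to 7115 FPKM over all libraries, the 4 T cell markers from 0.0390 to 3.42 and the 4 early lymphoid genes from 1.58 to 3.23 in carriers against 20.2 to 69.0 in the others. The part of these shifts in the Hoxb4 and Pbx3 values was not tested.

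The genes differed from each other in their pattern over the libraries. With each gene's log2(FPKM + 1) centred and set to an SD of 1 over the 8 libraries, the root mean square difference was smallest for Hoxa5 and Hoxa7 (0.836) and for Hoxa7 and Hoxb4 (0.851), and largest for Hoxb4 and Pbx3 (1.77). Meis1 and Pbx3 were 1.06 apart, and Hoxa9 and Meis1 1.36. Outside the 7 genes, Ly96, Parp8 and Rnf217 were most like Hoxb4 (0.198, 0.227 and 0.228), and BC021614, BC017158 and Ears2 most like Pbx3 (0.177, 0.202 and 0.206). Acot2 came nearest to Meis1 (0.178), Prss16 to Hoxa9 (0.202), C330018D20Rik to Hoxa5 (0.193) and Gmeb2 to Hoxa7 (0.260). With 8 points and 10854 genes to choose from, such nearness is a description of these libraries.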

How the data were processed

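The authors deposited FPKM values per gene in 2 tables of 23385 rows and 8 libraries, of which 92 rows are ERCC spike-in RNAs. Per the submitters' processing notes, TopHat, Cufflinks 2.0.0 and the mm9 build were used; no source used here states the annotation, the use of strand or the method behind the second, normalized table. The main results come from the first. The log2(FPKM + 1) of each gene averaging 1 FPKM or more over the 8 libraries entered limma 3.58.1 (R 4.3.3, trended variance), which was first tested on simulated data. A fit of 4 group means (4 residual degrees of freedom) gave single-group comparisons and the interaction, and an additive model (5) the averaged effects. P-values were adjusted over all 10854 genes by the Benjamini-Hochberg method, threshold 0.05. FPKM + 1 understates changes of low genes. An exact permutation test of 2 libraries against 2 cannot go below p = 0.333. The replicates are individual mice, per the labels' protocols.

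The genes and lists were chosen with earlier results of these data known. All 7 genes are named, with up to 4 called genes of each list by smallest p, and the genes nearest in profile (3 were ranked per gene). Alternatives were pseudocounts of 0.1 and 0.25, no filter, the normalized table, median centring, spike-in scaling, no variance trend, a replicate block, leaving out each library and fitting only the groups compared. Overlapping genes were read from RefSeq (GRCm38.p6), without coordinates for the expression values. Depth in reads is unknown, so no counting interval is given. A further gene, left out of the lists, is not reported here.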

Additional observations from a re-analysis of the deposited data

How the results depend on the processing

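The count of genes called among the 6 tested, 1 for Flt3-ITD against control, was 0 with a pseudocount of 0.1 or 0.25, without the filter and with the replicate block, 2 in the normalized table and with only the 2 groups compared, and 0 to 2 leaving out single libraries. For combined against control, 2 became 1 with either pseudocount, without the filter and with the replicate block, 0 with only the 2 groups compared, and 0 to 3 leaving out single libraries. For the averaged effect of Flt3-ITD, 2 became 1 without the filter and 1 to 3 leaving out single libraries. The 1 call of combined against control without the filter was Hoxa10, which enters the test there as a seventh gene. The count of 3 in both came without combined replicate 2, where Meis1 joined Hoxb4 and Pbx3. The other 4 comparisons gave 0 under every setting run. The causes were not tested.

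Some differences turned sign with the scaling or pseudocount. In the normalized table these were Hoxa5 in combined against control (-0.23) and in the averaged effect of Flt3-ITD (-0.0118), Hoxa7 in Smc3 del/+ against control (-0.23), in combined against Flt3-ITD (0.0523) and in the interaction (0.28), Hoxa9 in Flt3-ITD against control (-0.35), in the averaged effect of Flt3-ITD (-0.20) and in the interaction (0.31), and Hoxb4 in the averaged Smc3 effect (-0.15). Spike-in scaling turned Hoxa5 in combined against control (-0.16), Hoxa7 in Smc3 del/+ against control (-0.0701), Hoxa9 in Flt3-ITD against control (-0.14), in the averaged effect of Flt3-ITD (-0.12) and in the interaction (0.0336), and Hoxb4 in the averaged Smc3 effect (-0.12). Median centring turned Hoxa9 in combined against control (0.0154), and pseudocounts of 0.1 and 0.25 turned Hoxa7 in the averaged Smc3 effect (0.0461 and 0.0191). None of these values had passed, before or after.

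Leaving out single libraries also moved signs of differences near 0, none of which had passed. Hoxa5 ranged from -0.34 to 0.17 in Flt3-ITD against control, -0.0281 to 0.75 in combined against control and -0.29 to 0.16 in the averaged Smc3 effect. Hoxa7 ranged from -0.34 to 0.49 in Smc3 del/+ against control, -0.30 to 0.0634 in combined against Flt3-ITD, -0.61 to 0.22 in the interaction and -0.20 to 0.13 in the averaged Smc3 effect. Hoxa9 ranged from -0.11 to 0.0240 in combined against control, Hoxb4 from -0.42 to 0.16 in Smc3 del/+ against control and from -0.0126 to 0.28 in the averaged Smc3 effect. Meis1 ranged from -0.47 to 0.22 in combined against Flt3-ITD and -0.24 to 0.46 in the interaction, and Pbx3 from -0.40 to 0.27 in combined against Flt3-ITD.

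Same-numbered replicates showed no shared deviation: the correlation of replicate deviations between groups was -0.113 to 0.0229. With 2 mice a group, these values cannot settle whether same-numbered mice were paired or handled together. With the replicate block, Pbx3 gave adjusted p = 0.0630 in Flt3-ITD against control and 0.0685 in combined against control (limma), and no other call of the 7 genes was changed. Over all genes, Flt3-ITD against control called 1633 to 4874 under the other settings and 247 to 4251 leaving out single libraries, combined against control 41 to 5981 and 81 to 3427, the averaged effect of Flt3-ITD 2308 to 5053 and 1205 to 4717, combined against Flt3-ITD 2 to 43 and 3 to 3242, the interaction 2 to 30 and 4 to 2051, Smc3 del/+ against control 1 to 22 and 1 to 12, and the averaged Smc3 effect 0 to 4 and 0 to 1. Precision is limited by 2 mice a group, by the unknown depth and by the scaling.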
